A study of Mus musculus with 12 samples.

Results

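The Hippo pathway genes followed here are Yap1, Wwtr1 (which encodes Taz), the 4 Tead genes, the kinases Lats1 and Lats2, and the targets Ctgf and Cyr61 (now also called Ccn2 and Ccn1). They were chosen by gene symbol, and all 10 were found among the 39017 genes of the count table. Gene expression was measured by RNA sequencing of whole adrenals trimmed of fat, with 1 library per mouse,. The mice were females of 10 to 11 weeks on a mixed sv129-C57Bl/6 background, 6 controls (Ctrl) and 6 with stabilized β-catenin (βCat-GOF). Control mice had the genotype ASCre/+ and βCat-GOF mice the genotype ASCre/+ ::Ctnnb1fl(ex3)/+. Both groups thus carry Cre at the aldosterone synthase (AS, Cyp11b2) locus, which drives it in cells of the zona glomerulosa (zG). In βCat-GOF mice Cre also removes an exon of 1 Ctnnb1 allele, which stabilizes β-catenin in those cells and their descendants.

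In the Hippo pathway, Lats kinases phosphorylate the co-activators Yap and Taz and keep them out of the nucleus. When the kinases are inactive, Yap and Taz enter the nucleus, bind the Tead proteins, which hold the DNA, and switch on genes such as Ctgf and Cyr61. The pathway responds to cell contact, polarity and tension, shares components with Wnt/β-catenin signalling, and in mice Yap and Taz help to maintain the postnatal adrenal cortex. It acts largely through phosphorylation and location of proteins, which RNA counts do not measure.

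The promoters of 3 genes are shown because 2 of them, Yap1 and Ajuba, rose in βCat-GOF adrenals and the other, Cyr61, is a target whose level varied most between mice. Each is the 250 bases before the transcription start in RefSeq (GRCm38.p6), read 5′ to 3′ on the strand of the gene, with the core letters bound by Tead proteins (GGAATG, or CATTCC where they lie on the other strand) in capitals.
Yap1, chr9:8004597-8004846, minus strand: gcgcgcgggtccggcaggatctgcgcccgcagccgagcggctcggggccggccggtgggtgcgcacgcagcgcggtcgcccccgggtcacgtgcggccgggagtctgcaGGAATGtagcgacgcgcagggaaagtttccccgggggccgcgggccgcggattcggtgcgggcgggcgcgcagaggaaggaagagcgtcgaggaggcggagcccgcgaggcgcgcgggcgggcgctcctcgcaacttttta
Cyr61, chr3:145649986-145650235, minus strand: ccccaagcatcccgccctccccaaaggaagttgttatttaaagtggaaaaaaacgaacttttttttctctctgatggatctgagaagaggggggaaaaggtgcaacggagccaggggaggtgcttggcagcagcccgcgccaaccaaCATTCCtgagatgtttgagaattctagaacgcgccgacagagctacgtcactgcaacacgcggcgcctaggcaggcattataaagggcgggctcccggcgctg
Ajuba, chr14:54577662-54577911, minus strand: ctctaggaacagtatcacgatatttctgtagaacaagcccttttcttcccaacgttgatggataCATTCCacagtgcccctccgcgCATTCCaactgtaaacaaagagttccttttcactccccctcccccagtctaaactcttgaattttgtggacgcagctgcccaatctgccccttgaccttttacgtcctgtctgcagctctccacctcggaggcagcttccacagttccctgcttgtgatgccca
The letters occur once in the Yap1 and Cyr61 windows and in 2 places in that of Ajuba. The windows of Fat3, Frmd6 and Mark3, which also rose, do not hold the letters. Among all 32851 RefSeq promoters of this length, 12.6% hold them on either strand. An entry was found for 7 of the 10 pathway genes, and 4 of these (Yap1, Wwtr1, Tead3 and Cyr61) hold the letters in at least 1 entry. Wwtr1, Tead3 and Lats2 have more than 1 entry each. Background shares here count single entries, so they cannot be set directly against a count of genes with any matching entry. The core letters of TCF/LEF, the partners of β-catenin (CTTTGAT or CTTTGAA, either strand, in 7.48% of promoters), were found in 1 of the 7, Wwtr1. These matches describe the letters in the window and are not measured binding sites.

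Libraries held 14090378 to 25625494 counts in controls and 13484675 to 24951480 in βCat-GOF mice (two-sided exact permutation test, p = 0.777). When the genes tested were used to cluster the mice (Spearman correlation, average linkage), βCat-GOF mice 1 and 2 joined the branch of the 6 controls, and the other 4 formed the second branch. Calls among the named genes that change without these 2 mice are given with both values. All control titles begin with 1 number and all βCat-GOF titles with others, so a difference between families or batches marked by these numbers cannot be told apart from genotype. Ctnnb1, the targeted gene, averaged 21620 ± 858 normalized counts for Ctrl mice and 21400 ± 1150 for βCat-GOF mice (SD, n = 6), a log2 fold change of -0.02 (edgeR adjusted p = 0.907). A total over the gene does not see the loss of 1 exon from 1 allele, so this value does not check the genotype.

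Of the 10 genes, Yap1 alone passed an adjusted p of 0.05 in the comparison of βCat-GOF with Ctrl, and it rose; none fell. Of the 14953 genes tested, 2.16% rose and 1.52% fell by the same rule. At an unadjusted p under 0.05, 3 of the 10 were higher and 0 lower, against 9.73% and 10.7% of all genes tested. The median log2 fold change of the 10 was 0.06, against 0.00 (0.000105) over all genes tested. With the cut-offs of the study (fold above 1.4 and base mean above 100 besides the adjusted p), none of the 10 passed, against 1.48% of genes tested, because the fold of Yap1 was 1.34. Normalized counts are counts divided by the size factor of each library, and in whole adrenals fewer cells of a type and less RNA per cell cannot be told apart.

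**Figure D1:**
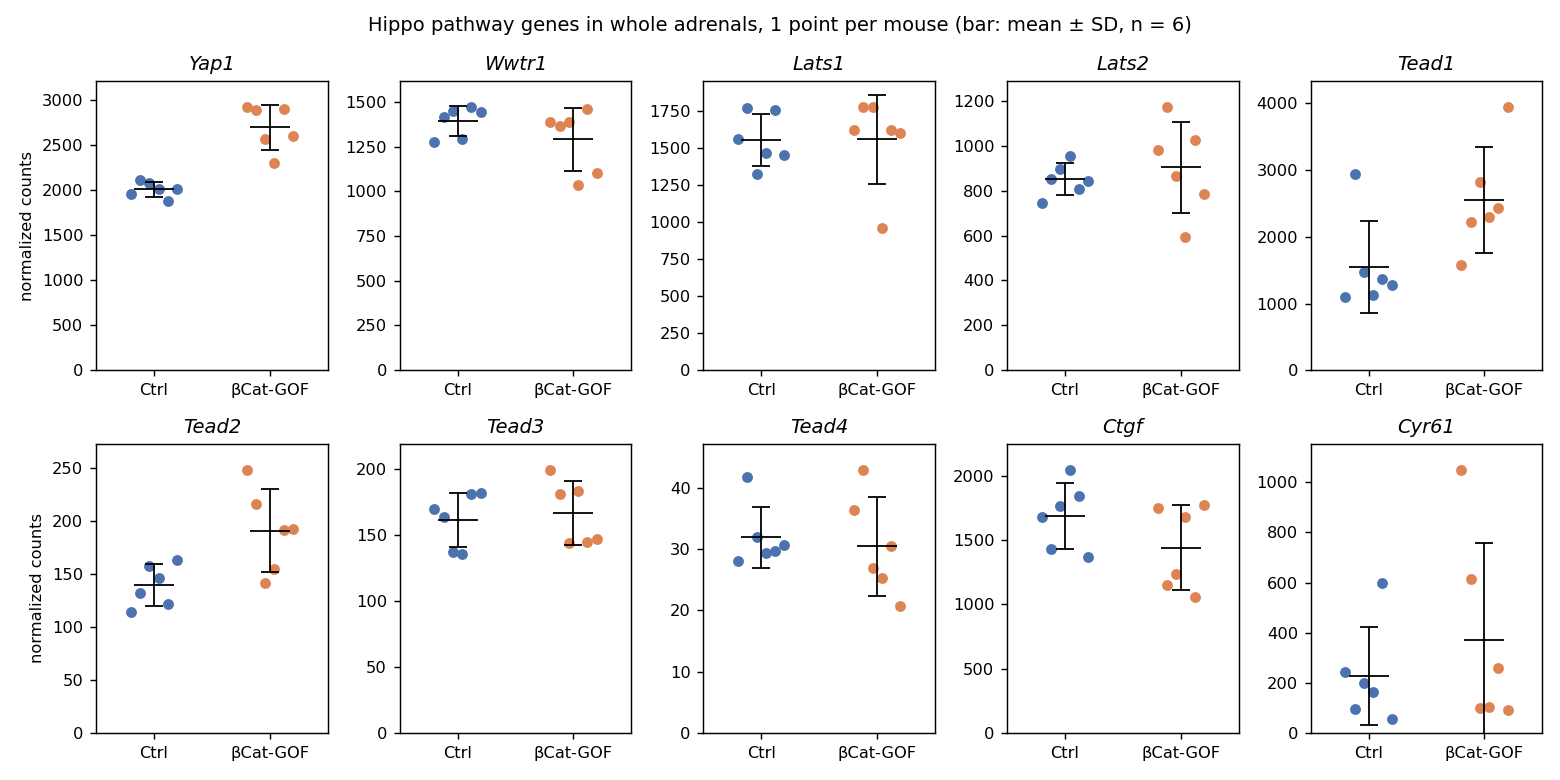
Normalized counts (vertical axis from 0) of the 10 Hippo pathway genes, 1 point per mouse, with the mean and SD of each group (n = 6; the lower bar of Cyr61 in βCat-GOF mice is cut at 0). All 6 βCat-GOF mice lie above all controls for Yap1, control mouse 2 stands at 2937 for Tead1, and Cyr61 spreads widely in both groups.

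Among the co-activators, Yap1 was the gene that changed. Its RNA ranged from 1881 to 2109 normalized counts in controls (median 2010) and from 2296 to 2915 in βCat-GOF adrenals (median 2738). The groups did not overlap, a separation in that direction seen for 1.61% of genes tested. The log2 fold change was 0.42 (SE 0.077, edgeR adjusted p = 0.0089), and the two-sided exact permutation test gave p = 0.00217, the smallest that 6 against 6 mice allow. Yap1 passed in all 12 fits that left out 1 mouse (log2 fold change 0.40 to 0.46) and in all 10 other fits (0.35 to 0.44). These 10 include a fit without the mouse whose title begins with 1387, which is βCat-GOF mouse 5 and is also among the 12. Yap1 lies at chr9:7931999-8004596 on the minus strand (mm10).

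Wwtr1, the paralogue of Yap1, ranged from 1277 to 1469 normalized counts in controls (median 1429) and from 1036 to 1461 in βCat-GOF adrenals (median 1374). The ranges overlap, with βCat-GOF mice 4 and 6 below every control. Its log2 fold change was -0.12, with a 95% interval of -0.30 to 0.07 (edgeR adjusted p = 0.522). The balance of the pair was compared within each library, where no scaling between libraries enters. The log2 ratio of Wwtr1 to Yap1 per kilobase of exon was 0.42 ± 0.10 in controls (range 0.32 to 0.60) and -0.11 ± 0.12 in βCat-GOF adrenals (range -0.28 to 0.07; SD, n = 6). It fell by 0.54 on the log2 scale without overlap of the groups (exact permutation p = 0.00217, adjusted p = 0.0152 over the 7 ratios tested). Per kilobase, Wwtr1 thus stood above Yap1 in every control and close to or below it in βCat-GOF mice. This order depends on the exon lengths used (9.257 kb for Yap1 and 4.779 kb for Wwtr1), while the fall of the ratio does not. In normalized counts not divided by length, Yap1 was above Wwtr1 in every mouse.

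Neither Lats kinase passed the test. Lats1 ranged from 1324 to 1769 normalized counts in controls (median 1515) and from 962 to 1775 in βCat-GOF adrenals (median 1619), with a log2 fold change of -0.01 (95% interval -0.27 to 0.25, edgeR adjusted p = 0.988). The lowest value came from βCat-GOF mouse 4, and the other 5 were at 1601 or more. Lats2 ranged from 747 to 953 in controls (median 847) and from 593 to 1171 in βCat-GOF adrenals (median 923), with a log2 fold change of 0.08 (95% interval -0.19 to 0.35, edgeR adjusted p = 0.783). For both kinases the βCat-GOF values extended below and above those of controls. In the GENCODE M21 annotation 42.4% of the exon bases of Lats2 are shared with the readthrough gene Gm49361, which is not among the genes counted. The log2 ratio of Lats2 to Lats1 differed by 0.08 (exact permutation adjusted p = 0.558).

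Tead1, the most abundant of the Tead genes, was at 1103 to 2937 normalized counts in controls (median 1320) and at 1581 to 3942 in βCat-GOF adrenals (median 2365). Control mouse 2 held the value of 2937, while the other 5 controls were at 1469 or less, below every βCat-GOF mouse. With all 12 mice the log2 fold change was 0.70 (SE 0.25, edgeR adjusted p = 0.139), which does not pass. DESeq2 with all 12 mice gave 0.72 (adjusted p = 0.059), which does not pass either. Without control mouse 2 the log2 fold change was 0.99 (edgeR adjusted p = 0.0138), and 1.01 with DESeq2 (adjusted p = 3.9e-05). This DESeq2 fit was chosen after seeing the data. Both fits leave out the only control value that overlapped the βCat-GOF mice, so their p-values are not separate evidence of a rise. Without βCat-GOF mice 1 and 2 the log2 fold change was 0.88 (edgeR adjusted p = 0.0478). The call for Tead1 thus depends on which mice enter, and it passed in 1 of the 12 fits that left out 1 mouse.

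Tead2 ranged from 114 to 163 normalized counts in controls (median 139) and from 141 to 248 in βCat-GOF adrenals (median 192). In 4 of 6 βCat-GOF mice it was above every control, but the change missed the threshold (log2 fold change 0.45, SE 0.16, edgeR adjusted p = 0.140). Tead3 was at 136 to 182 in controls (median 167) and 144 to 199 in βCat-GOF adrenals (median 164), with a log2 fold change of 0.04 (95% interval -0.23 to 0.32, edgeR adjusted p = 0.904). Tead4, the lowest of the pathway genes, was at 28.1 to 41.7 in controls (median 30.2) and 20.7 to 42.9 in βCat-GOF adrenals (median 28.7), with a log2 fold change of -0.07 (95% interval -0.49 to 0.35, edgeR adjusted p = 0.892). Its raw counts were 16 to 50 per library, so counting noise is larger for Tead4 than for the other genes.

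**Figure D2:**
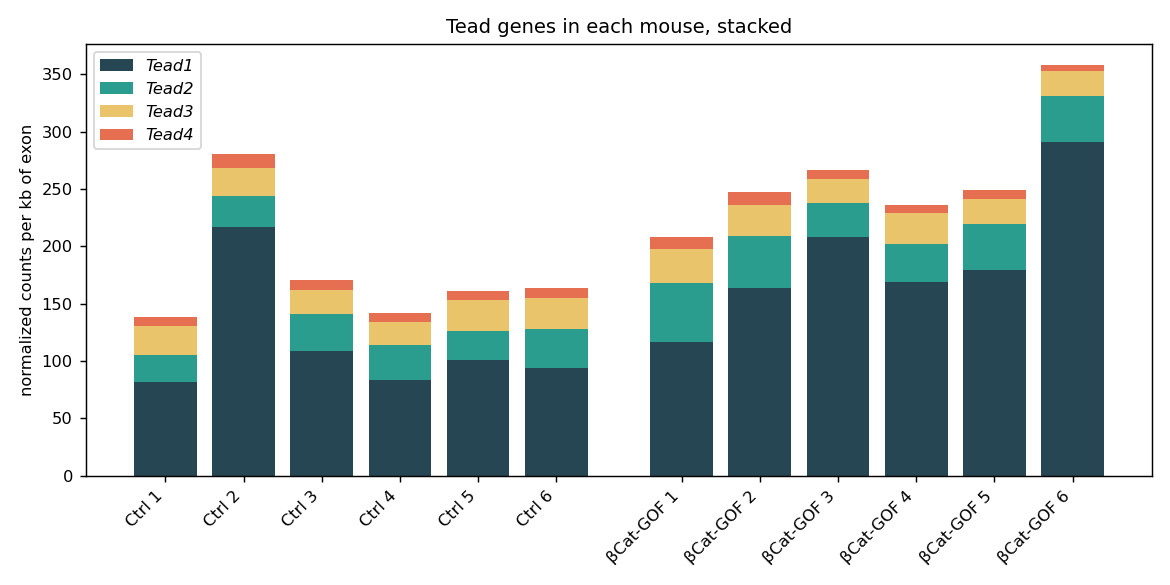
Normalized counts per kilobase of exon of the 4 Tead genes, stacked for each of the 12 mice. Tead1 makes up most of the summed level in every mouse, 63.0% on average in controls and 70.8% in βCat-GOF mice, and control mouse 2 has the tallest Tead1 bar among controls.

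The plot of Tead levels in each mouse shows how the family was composed. Tead1 supplied 63.0% ± 7.40 of the summed Tead level per kilobase for Ctrl and 70.8% ± 8.97 for βCat-GOF mice (SD, n = 6). Tead2 supplied 17.4% ± 4.28 and 15.9% ± 5.22, Tead3 14.4% ± 3.57 and 9.93% ± 2.91, and Tead4 5.18% ± 0.575 and 3.41% ± 1.26. The log2 ratio of Tead4 to the other Tead genes fell by 0.72 (exact permutation p = 0.0130, adjusted p = 0.0455 over the 7 ratios). That call was lost in 8 of the 12 repeats that left out 1 mouse. Tead4 itself had a log2 fold change of -0.07 (edgeR adjusted p = 0.892). Most of the level it was divided by came from Tead1, with a log2 fold change of 0.70 (edgeR adjusted p = 0.139), so the ratio does not show a fall of Tead4 alone. The ratios of Tead1, Tead2 and Tead3 to the others did not pass (adjusted p = 0.235, 0.558 and 0.116).

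Neither target of the pathway passed the test. Ctgf, a secreted matrix-associated CCN protein, was at 1368 to 2047 normalized counts in controls (median 1725) and 1057 to 1775 in βCat-GOF adrenals (median 1460). In 3 βCat-GOF mice it was below every control and in the other 3 within their range. The log2 fold change was -0.24 (95% interval -0.53 to 0.06, edgeR adjusted p = 0.401). Exons of the antisense gene Gm15270 cover 23.2% of those of Ctgf. Gm15270 had 3 to 22 raw counts and Ctgf 979 to 2323. Whether reads in the shared bases were counted for Ctgf is not known, because the strand setting is not given.

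Cyr61, another CCN protein and an early-response target, was the most variable of the 10 genes. It ranged from 55.9 to 600 normalized counts in controls (median 180) and from 93.0 to 1049 in βCat-GOF adrenals (median 182). The medians are close, and the high values came from control mouse 5 (600) and βCat-GOF mice 1 and 2 (1049 and 613). The coefficient of variation was 86.4% in controls and 105% in βCat-GOF mice, against 4.05% and 9.27% for Yap1. The log2 fold change was 0.72 (SE 0.67, edgeR adjusted p = 0.582) and turned to -0.71 without βCat-GOF mice 1 and 2 (adjusted p = 0.428). Cyr61 is also an immediate early gene, a class that rises quickly when cells are stimulated or handled. The mean log2 CPM of the 23 other immediate early genes tested was 3.46 to 4.34 in controls and 3.85 to 5.81 in βCat-GOF mice, highest in βCat-GOF mice 2 (5.81) and 1 (5.35). The correlation of Cyr61 with this mean within each group is given under other observations, and their part in the values of Cyr61 was not tested.

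**Figure D3:**
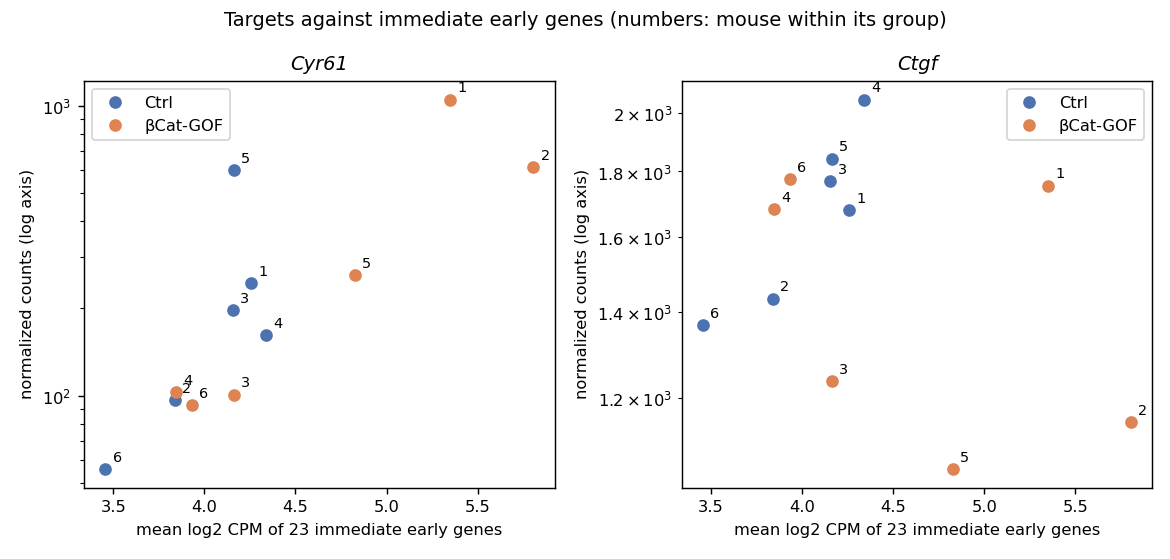
Normalized counts of Cyr61 (left) and Ctgf (right) on a log axis against the mean log2 CPM of 23 immediate early genes, 1 point per mouse with its number within the group. βCat-GOF mice 1 and 2 lie farthest to the right and are the highest for Cyr61, at 1049 and 613.

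Levels were compared between genes as normalized counts per kilobase of exon, so their order depends on the exon lengths used. In controls Ctgf was highest (591 ± 89.4 per kilobase, SD, n = 6), followed by Wwtr1 (291 ± 17.7), Yap1 (217 ± 8.79) and Lats1 (213 ± 24.4). The ranges of Ctgf, Wwtr1 and Yap1 do not overlap in controls, while those of Yap1 and Lats1 do. Lats2 (122 ± 10.2), Tead1 (114 ± 51.3) and Cyr61 (112 ± 96.8) overlap with each other. The range of Tead1 (81.31 to 216.5) also overlaps those of Yap1 and Lats1. That of Cyr61 (27.67 to 297.2) also overlaps those of Wwtr1, Yap1, Lats1 and Tead2. Tead2 (29.1 ± 4.14) and Tead3 (24.04 ± 3.08) also overlap, and Tead4 (8.87 ± 1.38) lies below both. In βCat-GOF adrenals Ctgf remained first (504 ± 115) and Yap1 came second (291 ± 27.0), its range overlapping that of Wwtr1 (270 ± 36.6).

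The other genes of the pathway were described from lists of kinases, upstream regulators and Tead co-regulators. Of 55 such genes in the table, 49 were tested, and 4 rose and 0 fell (background 2.16% and 1.52%). Without βCat-GOF mice 1 and 2, 6 rose and 1 fell. Of the 49, 35 had a log2 fold change above 0. The median of the 49 was 0.09, against 0.00 over all genes tested. All 4 that rose are upstream regulators, of which 24 were tested. The largest relative change was in Fat3, an atypical cadherin, from 40.96 to 113 normalized counts in controls (median 91.4) to 133 to 515 in βCat-GOF adrenals (median 274). Every βCat-GOF mouse was above every control, and the log2 fold change was 1.92 (SE 0.33, edgeR adjusted p = 0.00625).

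Ajuba, a LIM protein that binds and restrains Lats kinases, rose in the same way. It was at 698 to 1154 normalized counts in controls (median 779) and 1462 to 2733 in βCat-GOF adrenals (median 1676), without overlap. The log2 fold change was 1.19 (SE 0.19, edgeR adjusted p = 0.00413). Frmd6, a FERM domain protein upstream of the kinases, was at 858 to 1388 in controls (median 980) and 1337 to 1893 in βCat-GOF adrenals (median 1516). Control mouse 5 was above the lowest βCat-GOF mouse, and the log2 fold change was 0.61 (SE 0.13, edgeR adjusted p = 0.0205). A processed pseudogene, Gm5780, matches 40% of the Frmd6 transcript, so its reads may be shared.

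Mark3, a polarity kinase, was at 1381 to 1502 normalized counts in controls (median 1483) and 1571 to 1832 in βCat-GOF adrenals (median 1740). The groups did not overlap, and the log2 fold change was 0.24 (SE 0.060, edgeR adjusted p = 0.0442), a call that held in 1 of 12 fits without 1 mouse. Ajuba and Fat3 passed in all 12 of these fits, and Frmd6 in 10. Of the 15 kinases of the cassette and its inputs, 0 passed; those with the largest differences were Map4k1 (log2 fold change -0.67, adjusted p = 0.284), Taok3 (0.39, adjusted p = 0.106) and Stk4, the Mst1 kinase (0.22, adjusted p = 0.147), by edgeR. Taok3 passed without βCat-GOF mice 1 and 2 (log2 fold change 0.57, edgeR adjusted p = 0.00224) and without βCat-GOF mouse 1 alone (0.48, edgeR adjusted p = 0.0265). In this list 3 of 15 genes were higher and 0 lower at an unadjusted p under 0.05 (background 9.73% and 10.7%). Of the 10 Tead co-regulators tested, 0 passed, with Runx1 at a log2 fold change of 0.81 (edgeR adjusted p = 0.110), Runx2 at 0.48 (0.606) and Ncoa2 at -0.19 (0.292); Runx1 passed with DESeq2 (0.82, adjusted p = 0.0377). At an unadjusted p under 0.05, 1 gene of the 10 was higher and 0 lower, with the same background.

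**Figure D4:**
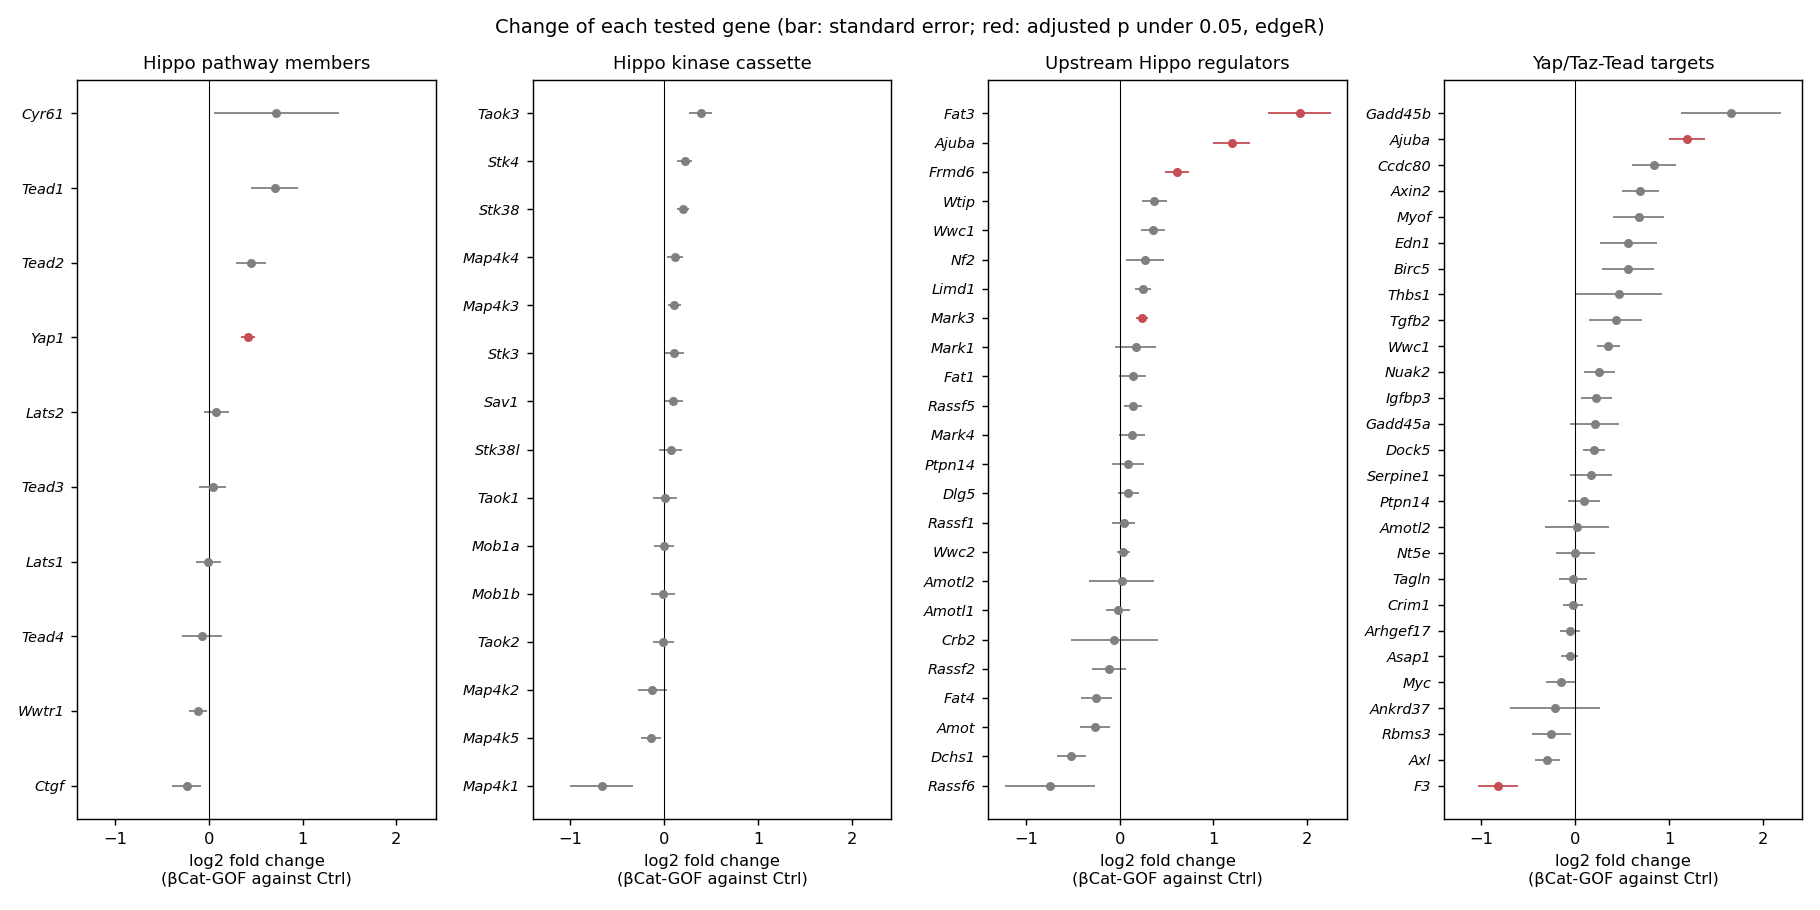
Log2 fold change (βCat-GOF against Ctrl, horizontal axis) with its standard error for each gene tested among the 10 pathway genes, the kinases, the upstream regulators and the Yap/Taz-Tead targets. Red points passed an adjusted p of 0.05 (edgeR): Yap1 among the 10, then Fat3, Ajuba, Frmd6 and Mark3, and among targets Ajuba and, downward, F3.

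Of 31 genes commonly listed as Yap/Taz-Tead targets besides Ctgf and Cyr61, 27 were tested, 1 rose and 1 fell (background 2.16% and 1.52%). At an unadjusted p under 0.05 by edgeR, 6 were higher and 2 lower (background 9.73% and 10.7%). The median log2 fold change of the 27 was 0.20, against 0.00 over all genes tested, and 18 were above 0. The gene that rose is Ajuba, which is also in the list of regulators, as are Amotl2, Fjx1, Ptpn14 and Wwc1, so the lists are not separate. Among the 6 higher at an unadjusted p are Ajuba, Wwc1 and Axin2. The paper names Axin2 as a β-catenin target (log2 fold change 0.70, edgeR adjusted p = 0.0739), so the list does not isolate Yap/Taz-Tead output. The gene that fell is F3, tissue factor, the starter of blood coagulation, at 211 to 367 normalized counts in controls (median 269.9) and 92.2 to 199 in βCat-GOF adrenals (median 184). Every βCat-GOF mouse was below every control, which holds for 1.16% of genes tested, and the log2 fold change was -0.82 (SE 0.21, edgeR adjusted p = 0.0498). This call was kept in 1 of 12 fits without 1 mouse. Of the CCN genes tested, 4 in number with Ctgf and Cyr61, 0 passed at an adjusted and 0 at an unadjusted p of 0.05 (edgeR); Wisp1 was at 118 ± 21.7 and 90.3 ± 24.1 (SD, n = 6; edgeR adjusted p = 0.295).

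Within groups, neither Yap1 nor Wwtr1 followed the targets closely enough to pass the test. Of 10 correlations among co-activators and targets over 6 mice, Ctgf with Cyr61 included, the smallest adjusted p was 0.384 (exact permutation of pairings). The largest was that of Yap1 with Cyr61 in βCat-GOF mice, with Pearson r = 0.81 (exact permutation p = 0.0667), Spearman rho = 0.71 (exact permutation p = 0.136), and r = 0.90 without the 2 mice farthest from the median of Yap1. In controls the same pair gave r = -0.70 (exact permutation p = 0.115), rho = -0.60 (exact permutation p = 0.242), and r = -0.09 without the 2 farthest mice. Ctgf and Cyr61 gave r = 0.69 in controls (exact permutation p = 0.115; rho = 0.60, exact permutation p = 0.242) and r = -0.12 in βCat-GOF mice (exact permutation p = 0.775; rho = -0.31, exact permutation p = 0.564), and both turned sign without the 2 farthest mice.

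Genes whose log2 CPM, centred on each group, was most like that of each gene over the 12 mice were also listed. For Yap1 they were Tmem200a (Pearson r = 0.96), Mef2c (0.96), Klrd1, Ppfibp1 and Mef2a (0.94 each), and for Wwtr1 Cenpk (0.91), Fer (0.91), Slc22a23 (0.90), Dhx9 (0.90) and Nek1 (0.90). For Ctgf they were B930094E09Rik (0.89), Dgka (0.85), B9d2 (0.85), Endov (0.84) and 4930599N23Rik (0.84). For Cyr61 they were Rad9b (0.97), Socs1 (0.91), Gm24455 (0.90), Klf6 (0.90) and Spry4 (0.89). These are the extremes of all genes tested over 12 mice and are given as a description.

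Some markers of the cells in the gland also differed between the groups. By the same rule, 2.16% of all genes tested rose and 1.52% fell. Of 10 zG markers, 4 rose, namely the angiotensin receptors Agtr1b (log2 fold change 1.56) and Agtr1a (0.89), Vsnl1 (1.00) and Dab2 (0.75), while Cyp11b2 did not pass (-0.18, edgeR adjusted p = 0.820). The summed level of the zG markers was 61140 to 75080 normalized counts in controls and 76450 to 100200 in βCat-GOF mice, and none was at 0. Of 8 macrophage markers, 3 fell (Itgax, Adgre1 and Mrc1), and 7 had a log2 fold change below 0. The other, Csf1r, was at 0.11 (edgeR adjusted p = 0.718). Their summed level was 5479 to 9114 in controls and 4752 to 8188 in βCat-GOF mice, and these ranges overlap. Of the 6 zF markers 2 rose (Mrap and Akr1b7), while Srd5a2 (log2 fold change -1.05, edgeR adjusted p = 0.0694), Cyp11b1 (-0.18) and Akr1d1 (-0.12) had values below 0 that did not pass, and Mc2r was at 0.16. The sum of all 6 was 357300 to 447100 in controls and 232800 to 612500 in βCat-GOF mice. No marker of X-zone, chromaffin, capsule and stroma, smooth muscle, endothelial or adipose cells passed in either direction by edgeR, with 3 higher and 8 lower of 49 tested at an unadjusted p under 0.05, where the background is 9.73% and 10.7%. The part of these shifts in the changes of Yap1, Fat3 and Ajuba was not tested.

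**Figure D5:**
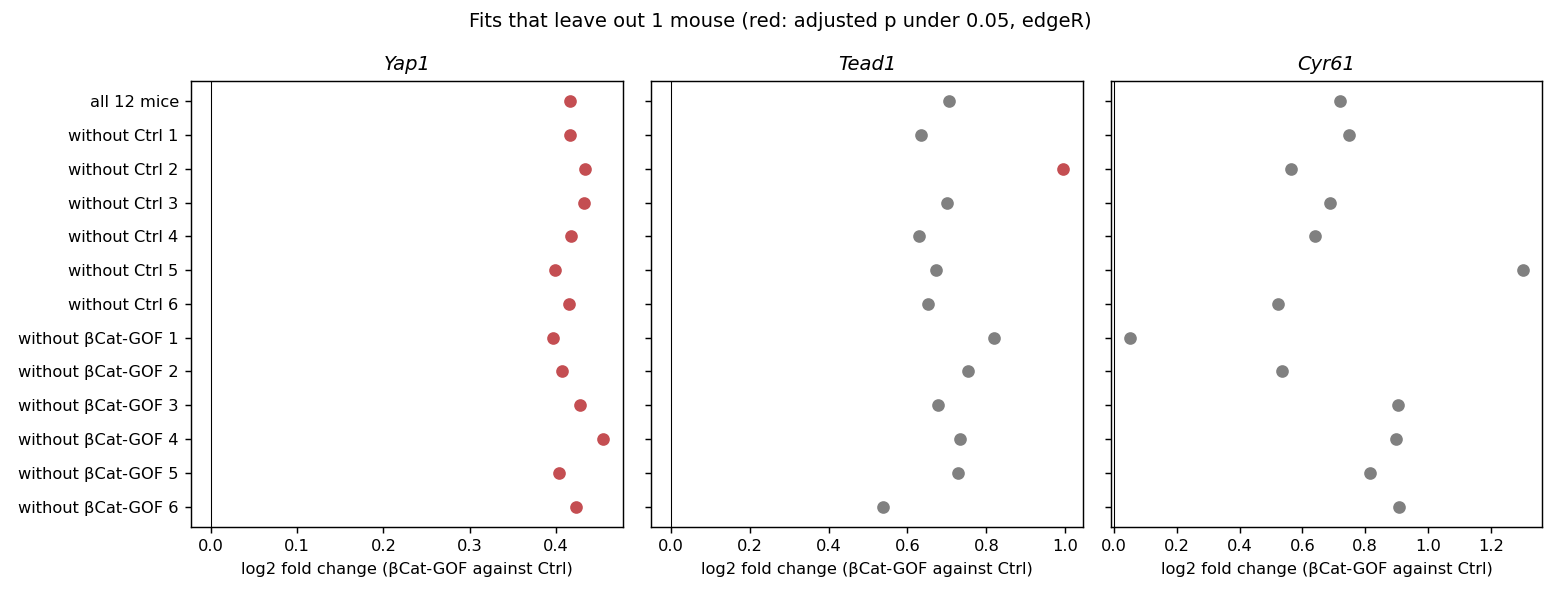
Log2 fold change of Yap1, Tead1 and Cyr61 (βCat-GOF against Ctrl, horizontal axis) with all 12 mice and without each mouse in turn; red points passed an adjusted p of 0.05 (edgeR). Yap1 stays between 0.40 and 0.46 and passes every time, Tead1 passes once, without control mouse 2, and Cyr61 spans 0.05 to 1.30.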

How the data were processed

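RNA from whole adrenals was sequenced with a TruSeq mRNA kit in 12 mice, 6 per group. According to the paper and the labels, the authors trimmed reads with cutadapt, aligned them to mm10 with STAR and assigned uniquely mapping reads to genes with featureCounts 1.4.4. The annotation release and strand setting are not given in the sources used here. The deposited counts are whole reads per gene and were not normalized. A second deposited table holds signal values, the same counts scaled by 1 factor per library (0.9545 to 0.9758 times the size factor of DESeq2). It supplied gene symbols, and 966 identifiers have none. The paper counts 6 mice per group, so replicates are taken as separate mice. Titles repeat a stem, with an added ending, within control mice 1 and 2, control mice 3 and 4, and βCat-GOF mice 1 and 2. What the shared stem marks is not stated in the labels. The setting without stem-repeat mice left out control mice 1 and 3 and βCat-GOF mouse 1.

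Counts were tested in R 4.3.3 by the quasi-likelihood test of edgeR 4.0.16, two-sided, after TMM normalization and filterByExpr. The p-values of the 14953 genes kept were adjusted by Benjamini-Hochberg. Counting noise limits low genes: 3 counts correspond to 0.117 to 0.222 CPM. Normalized counts use median-of-ratios size factors of DESeq2 1.42.0. Log2 CPM uses a prior count of 2. The 95% intervals are normal intervals from the standard error. Exact permutation tests use all splits of the mice. Positions and exon lengths are from GENCODE M21 (GRCm38, the assembly of mm10), promoters from RefSeq GRCm38.p6, and copies from blastn 2.17.0 (95% identity over 10% of a transcript). The scripts were tested on simulated data.

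The genes and lists were chosen with earlier results of these data known. Named are the 10 genes, Ctnnb1, the called genes of each list (at most 6) or otherwise its 3 largest log2 fold changes, and the 5 most similar genes for Yap1, Wwtr1, Ctgf and Cyr61. For cell type lists without a call, only counts are given. Relations with immediate early genes were added after their values were seen. Alternatives were DESeq2 with and without its prior, its size factors, no filter, at least 10 counts in every mouse, the study's cut-offs, 1 surrogate variable (sva 3.50.0), and leaving out mice.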

Additional observations from a re-analysis of the deposited data

Results flagged for a closer look

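In 6 of 48 groups checked, over 24 named genes, 1 mouse lay farther from the rest than the 95% limit for a single value among 6; chance gives about 1 in 20 groups. Tead1 was at 2937 normalized counts in control mouse 2, with the next control at 1469. Tead4 was at 41.7 in the same mouse, with the next control at 32.0. Cyr61 was at 600.1 in control mouse 5, against 244.5 in the next control. In that mouse Frmd6 was at 1388, against 1050.0 in the next control. Lats1 was at 961.6 in βCat-GOF mouse 4, with the next at 1601. Ctnnb1 was at 19230 in βCat-GOF mouse 5, with the next at 21310.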

How the results depend on the processing

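Over the 24 genes followed, the log2 fold change kept its direction and side of the threshold in 214 of 239 fits with another setting or without chosen mice. It did so in 253 of 288 fits that left out each mouse in turn. The 2 sets are not separate, because the fit without the 1387 mouse, which is βCat-GOF mouse 5, is counted in both. The number of the 10 genes that rose was 1, and 2 without βCat-GOF mice 1 and 2 or without control mouse 2 (2 also with DESeq2, chosen after seeing the data), 0 with the fold and base mean limits, and 1 to 2 without 1 mouse. The 4 other Hippo genes that rose became 6 with DESeq2 in either form, 6 without βCat-GOF mice 1 and 2, 5 with DESeq2 without control mouse 2, 3 with no filter, without the 1387 mouse or with the fold and base mean limits, and 2 without mice whose title repeats a stem (2 to 6 without 1 mouse), and the 0 that fell became 1 with DESeq2 in either form, without βCat-GOF mice 1 and 2, or with DESeq2 without control mouse 2 (0 to 1 without 1 mouse). Of the targets, the 1 that rose became 3 with DESeq2 in either form, 3 with a surrogate variable, 3 with DESeq2 without control mouse 2 and 2 without the mouse of the 1387 title (1 to 2 without 1 mouse); the 1 that fell became 0 with no filter, with a surrogate variable, without stem-repeat mice and without the 1387 mouse (0 to 1 without 1 mouse). For immediate early genes the 1 that rose became 5 and 4 with DESeq2 without and with its prior, 2 with its size factors, 2 with no filter, 5 with a surrogate variable, 3 with DESeq2 without control mouse 2, 0 with the fold and base mean limits and 1 to 2 without 1 mouse. The log2 ratio of Tead3 to the other Tead genes, -0.62, passed without control mouse 2 (-0.78, exact permutation adjusted p = 0.0354), with a range of -0.78 to -0.48 without 1 mouse, and that of Tead4 ranged from -0.84 to -0.51.

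Some log2 fold changes that did not pass changed sign. Cyr61, at 0.72 with all mice, was at -0.71 without βCat-GOF mice 1 and 2. Tead3 was at -0.0569 without stem-repeat mice, -0.0747 without βCat-GOF mice 1 and 2 and -0.0144 to 0.0876 without 1 mouse; Tead4 at 0.0371 with DESeq2 without control mouse 2 and -0.18 to 0.026 without 1 mouse; Lats1 at 0.0039 and 0.0037 with DESeq2 without and with its prior, 0.0039 with its size factors, 0.0045 with no filter, 0.0427 with a surrogate variable, 0.0436 with DESeq2 without control mouse 2 and -0.0459 to 0.0979 without 1 mouse; Lats2 at -0.0683 without βCat-GOF mice 1 and 2; and Ctnnb1 at 0.0145 without the 1387 mouse (-0.0415 to 0.0145 without 1 mouse). Without the 2 mice farthest from the median, r turned to 0.15 for Yap1 with Ctgf, 0.71 for Wwtr1 with Ctgf, 0.69 for Wwtr1 with Cyr61 and -0.23 for Ctgf with Cyr61 in controls, and to -0.27 for Wwtr1 with Cyr61 and 0.35 for Ctgf with Cyr61 in βCat-GOF mice. The cause was not tested. No paired analysis was possible because the groups share no replicate number in the labels.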

Other observations

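Relations of the pathway genes with the mean log2 CPM of 23 immediate early genes within each group were computed after the data had been seen, 8 in all. For Cyr61 in βCat-GOF mice Pearson r was 0.93 (exact permutation p = 0.0139, adjusted p = 0.0556), with Spearman rho = 0.77 (exact permutation p = 0.103) and r = 0.95 without the 2 mice farthest from the median. In controls Cyr61 gave r = 0.74 (exact permutation p = 0.0944, adjusted p = 0.189), with rho = 0.60 (exact permutation p = 0.242) and r = -0.59 without the 2 farthest mice. For Ctgf in controls r was 0.90 (exact permutation p = 0.00972, adjusted p = 0.0556), with rho = 0.83 (exact permutation p = 0.0583) and r = 0.55 without the 2 farthest mice. For Yap1 in βCat-GOF mice r was 0.85 (exact permutation p = 0.0306, adjusted p = 0.0815), with rho = 0.77 (exact permutation p = 0.103) and r = 0.89 without the 2 farthest mice. None passed the adjustment. Maff, a small Maf transcription factor, was the immediate early gene that rose by edgeR, from 38.3 ± 13.3 to 115 ± 44.96 normalized counts (SD, n = 6; log2 fold change 1.57, edgeR adjusted p = 0.0156), and 11 of the 23 were higher and 0 lower at an unadjusted p under 0.05, against 9.73% and 10.7% of all genes tested.

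By group-centred log2 CPM over 12 mice, the genes most like Tead1 were Fam120a (Pearson r = 0.89), Slc7a1 (0.89), Ppp2r2a (0.88), Rap1gds1 (0.88) and Lrrc58 (0.87); Tead1 was added to this list after its values were seen. Of these, Slc7a1 (log2 fold change 0.63, edgeR adjusted p = 0.00369) and Rap1gds1 (0.36, adjusted p = 0.0109) rose in βCat-GOF adrenals.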
